A study of Mus musculus with 6 samples.

Results

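The genes described here are 10 of the 57180 genes in a table of RNA-seq counts from mouse liver cells sorted as NK cells. They encode receptor adaptors of the immunoreceptor tyrosine-based activation motif (ITAM) pathway and the proteins that act directly below them: *Tyrobp*, *Hcst*, *Cd247*, *Zap70*, *Syk*, *Lat*, *Lat2*, *Sh2d2a*, *Sh2d1a* and *Sh2d1b1*. They were chosen by gene symbol, and each had 1 row in the table. Liver NK cells were sorted by flow cytometry into CD36+ NK and CD36- NK fractions, with 3 libraries in each group. The study's flow cytometry gating defines NK cells as CD3- NK1.1+, and the sources used here do not give the gate of this sort. All the mice, per the methods, were wild-type C57BL/6J males of 6 to 8 weeks given 2.5 ml/kg of 20% CCl4 in olive oil by intraperitoneal injection, 2 injections a week for 4 weeks, and were harvested 48 h after the last injection. Both fractions therefore came from fibrotic livers, and no library from untreated mice was analysed here. CD36 is a fatty acid transporter and scavenger receptor of the cell surface. The comparison asks how the RNA of the fraction titled CD36+ NK differed from that of the fraction titled CD36- NK. The labels do not say whether a CD36+ NK and a CD36- NK library came from the same mice.

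Activating receptors of NK cells have short tails and signal through partner adaptors in the membrane. An ITAM is a pair of tyrosines, each followed after any pair of residues by a leucine or isoleucine. Src family kinases phosphorylate the tyrosines, and the kinases SYK and ZAP-70 then dock there and phosphorylate scaffolds such as LAT and NTAL, which gather phospholipase C-gamma and adaptors. DAP12 (*Tyrobp*) pairs with activating Ly49, CD94/NKG2C and NKG2D receptors in NK cells and with TREM receptors in myeloid cells, while CD3 zeta (*Cd247*) and the Fc receptor gamma chain (*Fcer1g*) pair with NKp46 and Fc receptors. DAP10 (*Hcst*) carries no ITAM but a motif that binds phosphatidylinositol 3-kinase. SAP (*Sh2d1a*) and EAT-2A (*Sh2d1b1*) are small SH2 proteins that bind the tails of SLAM receptors, and TSAd (*Sh2d2a*) is an SH2 adaptor that binds LCK. T cells rely mainly on ZAP-70 and LAT, B cells and myeloid cells on SYK and NTAL, and NK cells hold both kinases.

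The coding sequences of these motifs are shown because they set the adaptors apart. They come from the GENCODE M21 annotation of GRCm38 and lie in coding exons. Capitals mark the tyrosine codons and the leucine or isoleucine codons of each ITAM, and in *Hcst* the tyrosine, asparagine and methionine codons. All read 5′ to 3′ on the coding strand. Each ITAM window crosses an exon junction, so its coordinates include the intron between.
Tyrobp ITAM, chr7:30415670-30417382, plus strand: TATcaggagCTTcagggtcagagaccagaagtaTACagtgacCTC
Fcer1g ITAM, chr1:171229889-171230072, minus strand: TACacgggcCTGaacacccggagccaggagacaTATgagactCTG
Cd247 ITAM 1, chr1:165856451-165857454, plus strand: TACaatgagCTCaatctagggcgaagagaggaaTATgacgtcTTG
Cd247 ITAM 2, chr1:165858473-165859260, plus strand: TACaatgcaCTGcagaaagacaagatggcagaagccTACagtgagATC
Cd247 ITAM 3, chr1:165859819-165861042, plus strand: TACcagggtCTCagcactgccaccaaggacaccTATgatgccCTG
Hcst motif, chr7:30417821-30417832, minus strand: TACatcAACATG
Transcript Cd247-201 held 3 ITAMs and the other 5 coding transcripts of *Cd247* held 2 each, whereas *Tyrobp* held 1 and *Hcst* none. In the second ITAM of *Cd247* the pairs are 8 residues apart, and in the other ITAMs 7. The counts were per gene, so the transcripts of a gene cannot be told apart in them. *Lat* and *Lat2* coded for up to 5 tyrosines each that are followed, after any residue, by an asparagine, the pattern that GRB2 family adaptors bind.

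The libraries held 10292480 to 13787189 counts. *Cd36* itself was 203 ± 82.1 CPM (SD, n = 3; counts scaled to library size by TMM) in CD36+ NK and 21.0 ± 9.37 CPM in CD36- NK and was higher in every library titled CD36+ (log2 fold change 3.27, SE 0.43, edgeR adjusted p = 0.00615). The NK cell label was checked with 10 markers, whose summed level was 1124 to 1356 CPM in CD36+ NK and 5831 to 7583 CPM in CD36- NK; all 10 were lower in CD36+ NK (median log2 fold change -2.43). B cell markers were abundant in both fractions, at a summed 12033 to 13808 CPM in CD36+ NK and 7425 to 9678 CPM in CD36- NK, mostly *Ighm*. Macrophage markers summed to 6556 to 9070 CPM and 2417 to 5696 CPM, a sum led by *Lyz2*, whose groups overlapped (log2 fold change 0.10), while the 9 tested markers had a median log2 fold change of 2.90. Of the Kupffer cell markers, *Clec4f* was at 45.9 CPM in CD36+ NK 2, 1.51 CPM in CD36+ NK 1 and 0.0 CPM in the other 4 libraries, whereas *Cd5l* was highest in CD36+ NK 3 (454 CPM, against 129 and 237 CPM in the other CD36+ NK libraries and 11.1 to 85.8 CPM in CD36- NK). The CD36+ NK 1 library stood apart. Its *Cd3e* level was 27.0 CPM against 0.147 and 0.0831 CPM in the other CD36+ NK libraries and 0.615 to 1.06 CPM in CD36- NK, and its neutrophil markers summed to 2449 CPM against 469 and 510 CPM in the other two and 739 to 1837 CPM in CD36- NK. The members' fold changes are therefore also given without it. In CD36+ NK the B cell and macrophage marker sums both exceeded that of the NK markers. The fraction names therefore follow the titles, and differences between fractions are not differences within NK cells alone. In such bulk samples, fewer cells of a type and less RNA per cell cannot be told apart.

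All 10 genes passed the filter on low counts. Of them, 4 were DEGs (adjusted p below 0.05 in edgeR's quasi-likelihood test and a fold above 2), and all 4 were lower in CD36+ NK: *Sh2d1a*, *Cd247*, *Sh2d2a* and *Zap70*. That is 40.0% of the members, against 5.96% of the 14761 genes tested and 2.98% called lower. *Hcst* and *Lat2* also fell, by less than 2-fold, which made 6 members lower and none higher on the adjusted p alone (all genes, 10.5%, of which 5.44% lower and 5.07% higher). The groups did not overlap for 7 members that were lower and 1 that was higher in CD36+ NK, where the shares over all genes were 15.7% lower and 17.0% higher, 32.8% in all. The median log2 fold change of the members was -0.79 and that of all tested genes 0.01.

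**Figure D1:**
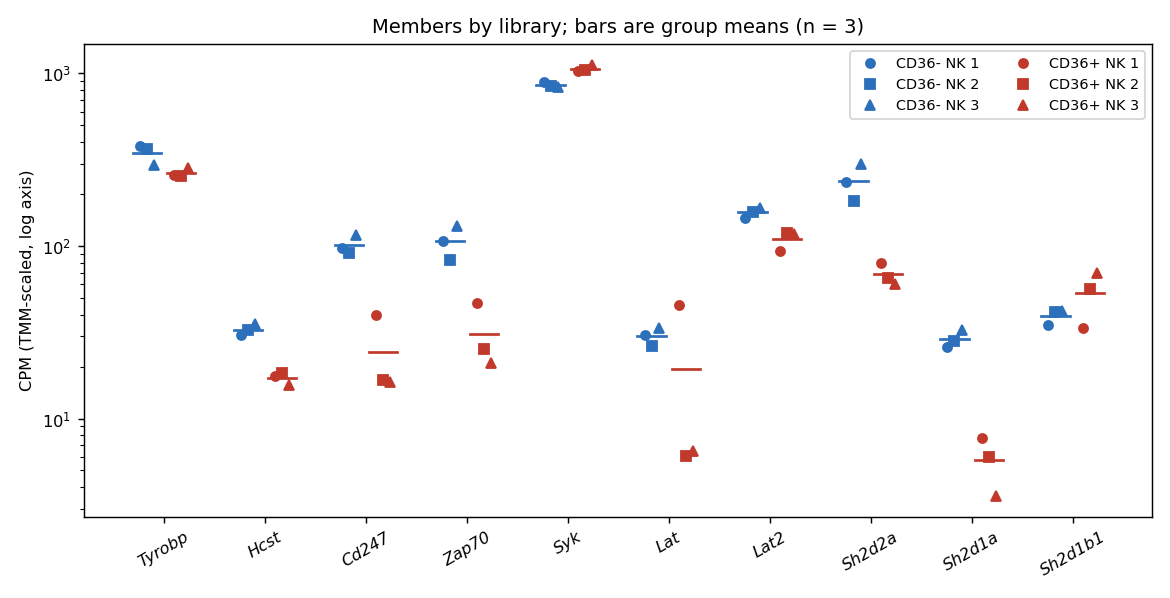
Level of each member in CPM (TMM-scaled, log axis) in the 3 CD36- NK libraries (blue) and the 3 CD36+ NK libraries (red), with bars at the group means. *Sh2d1a*, *Sh2d2a*, *Cd247*, *Zap70* and *Hcst* are lower in every CD36+ NK library, *Syk* is higher in every one, and *Lat* in CD36+ NK 1 (45.5 CPM) lies above all CD36- NK libraries.

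Of the 3 receptor adaptors, *Cd247* and *Hcst* fell and *Tyrobp* did not pass the test. *Cd247* (ENSMUSG00000005763, chr1:165616250-165704846 in the table's coordinates, plus strand), the CD3 zeta chain, was 40.0, 16.8 and 16.3 CPM in CD36+ NK and 97.5, 91.5 and 115.5 CPM in CD36- NK. Every CD36+ NK library was below every CD36- NK library, and CD36+ NK 1 was the highest of its group. The fold was 4.18 (log2 fold change -2.06, SE 0.35, edgeR adjusted p = 0.0144). Without CD36+ NK 1 the log2 fold change was -2.63 (edgeR adjusted p = 0.00193). The call was lost without CD36+ NK 2 (-1.85, adjusted p = 0.0564), without CD36- NK 1 (-2.10, adjusted p = 0.0549) and without CD36- NK 3 (-1.96, adjusted p = 0.0574), by edgeR. *Cd247* overlaps *Pou2f1*, on the opposite strand, over 12124 bases, and whether the counting used strand is not stated in the sources used here.

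*Hcst* (ENSMUSG00000064109, chr7:30117137-30119279, minus strand), the DAP10 adaptor of NKG2D, was 17.6, 18.4 and 15.7 CPM in CD36+ NK and 30.6, 32.5 and 35.2 CPM in CD36- NK. The libraries of each group lay close together and the groups were well apart. The log2 fold change was -0.92 (SE 0.12, edgeR adjusted p = 0.00589), a 1.90-fold difference (-0.95 on the log2 scale without CD36+ NK 1) that kept an adjusted p below 0.05 in all 13 alternative settings and never reached the fold threshold. *Tyrobp* (ENSMUSG00000030579, chr7:30113185-30117010, plus strand), its neighbour on the chromosome and the DAP12 chain, was 259.5, 255.2 and 282.8 CPM in CD36+ NK and 381.5, 365.3 and 292.8 CPM in CD36- NK. Its groups did not overlap, but CD36- NK 3 lay only just above CD36+ NK 3. The log2 fold change of -0.38 (SE 0.12) did not pass the test (edgeR adjusted p = 0.0938), and it was also -0.38 without CD36+ NK 1 (adjusted p = 0.159). Without CD36- NK 3 it was -0.50 (edgeR adjusted p = 0.0403, under the fold threshold), and the DESeq2 adjusted p over all libraries was 0.0507. *Fcer1g*, the Fc receptor gamma chain, which is not a member, had overlapping groups at 278.9, 338.3 and 371.9 CPM and 338.5, 331.9 and 270.6 CPM (log2 fold change 0.07, SE 0.14, edgeR adjusted p = 0.804).

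The makeup of the ITAM adaptors, compared per length, differed between the fractions without overlap. The level per length is given as RPKM, computed from the TMM-scaled library sizes and the gene lengths behind the deposited FPKM. Shares and orders between genes depend on those lengths (1300 bases for *Tyrobp*, 1605 for *Fcer1g* and 8265 for *Cd247*), and no other lengths were tried. *Cd247* made up 1.28%, 0.496% and 0.437% of the summed level of *Tyrobp*, *Fcer1g* and *Cd247* in CD36+ NK and 2.29%, 2.22% and 3.43% in CD36- NK. The share of *Tyrobp* was 49.7 ± 2.70% in CD36+ NK and 56.1 ± 0.830% in CD36- NK (SD, n = 3), and that of *Fcer1g* was 49.6 ± 3.17% and 41.2 ± 0.314%. The groups did not overlap for any of these shares, and each gave p = 0.1 in a 2-sided exact permutation test, which is the smallest p that 3 against 3 libraries can give. Without CD36+ NK 1, an alternative chosen after seeing the data, the mean shares in CD36+ NK were 0.467% for *Cd247*, 48.1% for *Tyrobp* and 51.4% for *Fcer1g*. Macrophages, monocytes, dendritic cells, neutrophils and mast cells also express *Tyrobp* and *Fcer1g*. Macrophage markers had the higher sums in CD36+ NK, neutrophil sums overlapped between the groups, and mast cell and basophil markers summed to 14.7 to 32.8 CPM in CD36+ NK and 27.9 to 59.6 CPM in CD36- NK. Dendritic cell markers summed to 287 to 352 CPM in CD36+ NK and 466 to 651 CPM in CD36- NK, mostly *Itgax* (log2 fold change -1.13), which NK cells also express, while *Xcr1* (2.46) and *Clec9a* (2.03), which define a dendritic cell subset, were DEGs higher in CD36+ NK. Monocyte markers summed to 493 to 1019 CPM and 835 to 1367 CPM. The part of these cells in the shares was not tested.

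Of the SYK family kinases, *Zap70* fell and *Syk* did not pass the test. *Zap70* (ENSMUSG00000026117, chr1:36800879-36821899, plus strand), the family member used by T cells and NK cells, was 46.7, 25.2 and 21.0 CPM in CD36+ NK and 107.4, 82.9 and 130.5 CPM in CD36- NK. No CD36+ NK library reached the lowest CD36- NK library, and CD36+ NK 1 was again the highest of its group. It fell 3.46-fold (log2 fold change -1.79, SE 0.32, edgeR adjusted p = 0.0167), and by 2.22 on the log2 scale without CD36+ NK 1 (adjusted p = 0.00378). Leaving out CD36+ NK 2, CD36+ NK 3, CD36- NK 1 or CD36- NK 3 took the edgeR adjusted p to between 0.051 and 0.0721, with log2 fold changes of -1.79 to -1.57. *Syk* (ENSMUSG00000021457, chr13:52737209-52802828, plus strand), which B cells and myeloid cells use in its place and NK cells beside it, was 1035, 1047 and 1112 CPM in CD36+ NK and 886, 843 and 832 CPM in CD36- NK. Every CD36+ NK library was higher, by a small margin. The log2 fold change of 0.32 (SE 0.09) missed the threshold in edgeR (adjusted p = 0.0611) and had an adjusted p of 0.0116 in DESeq2, with a fold of 1.25. Without CD36+ NK 1 it was 0.33 (edgeR adjusted p = 0.0998).

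The ratio of *Zap70* to *Syk* per length was 0.148, 0.0788 and 0.0619 in CD36+ NK and 0.395, 0.321 and 0.511 in CD36- NK. *Syk* was thus the more abundant transcript in every library of both fractions, and the ratio was lower in every CD36+ NK library. Its log2 value was -3.48 ± 0.65 (SD, n = 3) against -1.32 ± 0.34, a difference of -2.17 that does not depend on how libraries are scaled. The exact permutation p was 0.1, and 0.133 after Benjamini-Hochberg adjustment over the 4 ratios compared. The log2 ratio of *Cd247* to *Fcer1g* differed by -2.25 and that of *Hcst* to *Tyrobp* by -0.55, also without overlap and with the same exact permutation p values. The difference for *Zap70* to *Syk* ran from -2.53 to -1.90 when each library was left out in turn. The summed levels of B cell markers, whose cells use *Syk*, and of macrophage markers were also higher in CD36+ NK, and that of NK markers lower. DEGs were 0 of 8 B cell markers and 3 of 9 macrophage markers tested. The part of these cells in this ratio was not tested.

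**Figure D2:**
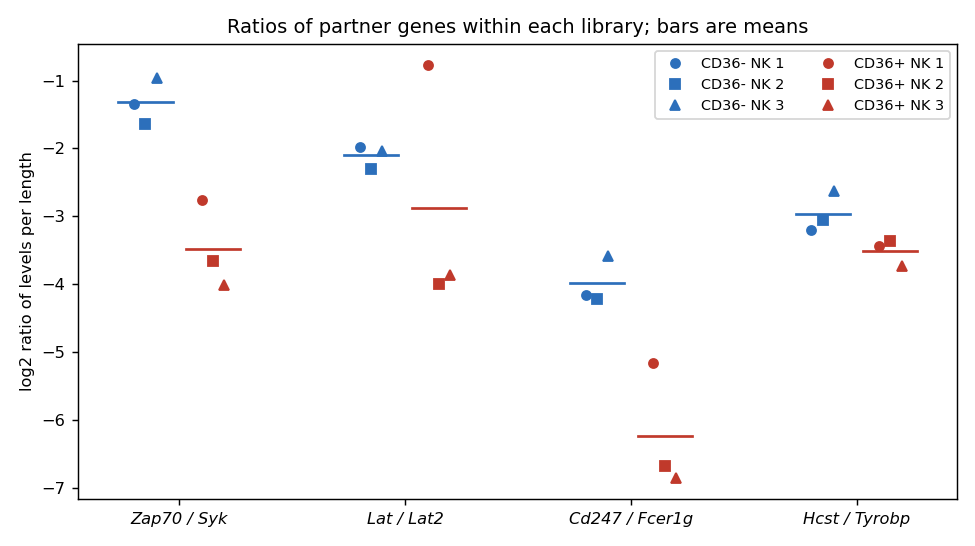
Log2 ratio of levels per length (y axis) within each library for 4 pairs of genes, CD36- NK in blue and CD36+ NK in red, with bars at the means. For *Zap70* to *Syk* the CD36+ NK mean is -3.48 and the CD36- NK mean -1.32, and *Lat* to *Lat2* is the one pair whose groups overlap, through CD36+ NK 1.

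The scaffolds gave 2 patterns. *Lat2* (ENSMUSG00000040751, chr5:134628876-134643879, minus strand), the NTAL scaffold of B cells, mast cells and NK cells, was 93.7, 119.3 and 116.6 CPM in CD36+ NK and 145.7, 158.1 and 166.4 CPM in CD36- NK. The groups did not overlap, and the difference was 1.43-fold (log2 fold change -0.51, SE 0.12, edgeR adjusted p = 0.0383). That adjusted p stayed below 0.05 in 7 of 13 alternative settings, among them the fit without CD36+ NK 1 (-0.42, adjusted p = 0.0495). *Lat2* overlaps *Rfc2* on the opposite strand over 1784 bases.

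*Lat* (ENSMUSG00000030742, chr7:125962996-125968742, minus strand), the scaffold of T cells that NK cells also use, was 45.5, 6.0 and 6.5 CPM in CD36+ NK and 30.5, 26.3 and 33.4 CPM in CD36- NK. The CD36+ NK 1 library alone was above the CD36- NK libraries, and the other two were well below them. Over all 6 libraries the log2 fold change was -0.65 with an SE of 0.74 (edgeR adjusted p = 0.644). Without CD36+ NK 1 it was -2.28 (edgeR adjusted p = 0.00193) and *Lat* was a DEG, which made 5 of the 10 members, where 7.38% of 15208 genes tested were DEGs and 3.64% were lower. Leaving out any other library gave log2 fold changes of -0.72 to -0.21 (edgeR adjusted p 0.678 to 0.904). The fit without CD36+ NK 1 was picked out after the data were seen, and it drops the library where *Lat* was highest. Of 10 T cell markers, 8 were, like *Lat*, highest in this library of all 6. *Cd3d* was 35.3 CPM there against 1.32 and 1.33 CPM in the other CD36+ NK libraries and 5.53 to 7.52 CPM in CD36- NK, *Trac* was 45.8 CPM against 1.47 and 0.831 CPM, and *Cd5* was 36.9 CPM against 1.40 and 2.41 CPM. The exceptions were *Trbc1*, at 42.0 CPM there and 93.7 to 131 CPM in CD36- NK, and *Cd28*, at 51.2 CPM there and 38.0 to 122 CPM in CD36- NK. Summed over 10 T cell markers, CD36+ NK 1 held 441 CPM, the other CD36+ NK libraries 70.3 and 86.3 CPM, and CD36- NK 184 to 311 CPM. The part of these genes' cells in the *Lat* value was not tested. The log2 ratio of *Lat* to *Lat2* differed by -0.77 (exact permutation p = 0.4) with all libraries and by -1.82 without CD36+ NK 1.

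**Figure D3:**
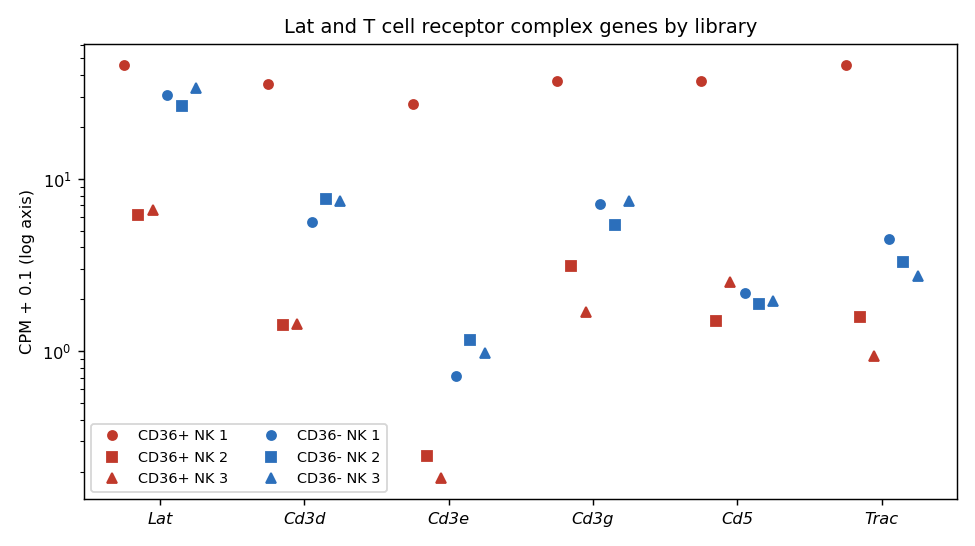
Level of *Lat* and of 5 T cell genes in each library, in CPM with 0.1 added, on a log axis, CD36+ NK in red and CD36- NK in blue. CD36+ NK 1 (red circle) is the highest library for all 6 genes, at 27.0 CPM for *Cd3e* where no other library exceeds 1.06 CPM.

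Of the 3 SH2 adaptors, *Sh2d1a* and *Sh2d2a* fell and *Sh2d1b1* did not pass the test. *Sh2d1a* (ENSMUSG00000005696, chrX:41591330-41618207, plus strand), the SAP adaptor of SLAM receptors, was 7.7, 6.0 and 3.6 CPM in CD36+ NK and 26.1, 28.0 and 32.7 CPM in CD36- NK. The groups were far apart, with a 5.02-fold difference (log2 fold change -2.33, SE 0.27, edgeR adjusted p = 0.00406), the largest of the 10 members over all 6 libraries. *Sh2d2a* (ENSMUSG00000028071, chr3:87754062-87763029, plus strand), the TSAd adaptor that binds LCK, was 80.2, 65.3 and 60.5 CPM in CD36+ NK and 233.9, 183.2 and 297.3 CPM in CD36- NK. It fell 3.47-fold, without overlap (log2 fold change -1.79, SE 0.20, edgeR adjusted p = 0.00341). These 2 genes were DEGs in all 13 alternative settings, and without CD36+ NK 1 their log2 fold changes were -2.60 and -1.93, the first then next to *Cd247* at -2.63.

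*Sh2d1b1* (ENSMUSG00000102418, chr1:170104889-170114338, plus strand), the EAT-2A adaptor of NK and other innate cells, was 33.6, 56.6 and 69.9 CPM in CD36+ NK and 34.7, 41.5 and 42.2 CPM in CD36- NK. Its groups overlapped through CD36+ NK 1, the lowest of all 6 libraries. The log2 fold change was 0.44 (SE 0.25, edgeR adjusted p = 0.331), and 0.67 without CD36+ NK 1 (adjusted p = 0.0355, under the fold threshold). Its neighbouring copy *Sh2d1b2* was at 0.0 to 1.56 CPM and was not tested, and fragments shared by the copies make the value of *Sh2d1b1* uncertain to that extent. The SLAM receptors that bind them gave no DEG among 6 tested. Of these, *Cd244a* had a log2 fold change of -0.80 (edgeR adjusted p = 0.0327) and *Slamf7* of -0.68 (edgeR adjusted p = 0.00444), both under the fold threshold, and the other 4 lay between -0.28 and 0.23.

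**Figure D4:**
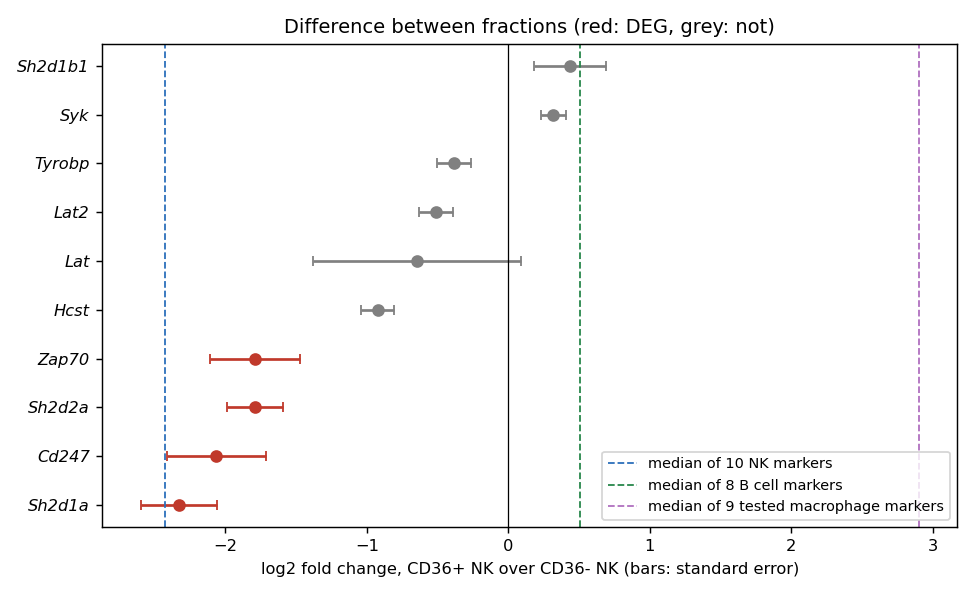
Log2 fold change of CD36+ NK over CD36- NK for each member with its standard error (x axis), DEGs in red and others in grey, and dashed lines at the medians of the NK, B cell and macrophage markers. *Sh2d1a* (-2.33) and *Cd247* (-2.06) lie nearest the NK marker median of -2.43, and *Syk* (0.32) and *Sh2d1b1* (0.44) nearest the B cell marker median of 0.51.

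The members also changed places in the order of levels per length. In CD36- NK the order was *Tyrobp* (267 ± 36.3 RPKM, SD, n = 3), *Syk* (62.5 ± 2.10), *Hcst* (33.8 ± 2.36), *Sh2d2a* (31.5 ± 7.55), *Zap70* (25.5 ± 5.67), *Lat2* (25.2 ± 1.68), *Sh2d1b1* (15.5 ± 1.61), *Cd247* (12.3 ± 1.51), *Lat* (5.85 ± 0.690) and *Sh2d1a* (3.82 ± 0.451). The libraries of neighbours overlapped from *Hcst* through *Lat2*, and between *Sh2d1b1* and *Cd247*. In CD36+ NK it was *Tyrobp* (204 ± 11.4 RPKM), *Syk* (78.0 ± 3.01), *Sh2d1b1* (21.0 ± 7.23), *Hcst* (17.8 ± 1.42), *Lat2* (17.7 ± 2.26), *Sh2d2a* (9.07 ± 1.35), *Zap70* (7.38 ± 3.30), *Lat* (3.76 ± 4.41), *Cd247* (2.95 ± 1.64) and *Sh2d1a* (0.760 ± 0.276). There, *Sh2d1b1*, *Hcst* and *Lat2* overlapped as neighbours, as did *Sh2d2a* through *Cd247*. The place of *Lat* above *Cd247* rests on CD36+ NK 1, where *Lat* was 8.85 RPKM: without that library *Lat* had a mean of 1.22 RPKM and *Cd247* of 2.00 RPKM, and *Lat2* (19.0 RPKM) stood above *Hcst* (17.6 RPKM). *Tyrobp* and *Syk* led and *Sh2d1a* came last in both fractions, whereas *Sh2d1b1* stood in the seventh place in CD36- NK and in the third in CD36+ NK.

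Set against the NK markers over all 6 libraries, the mean of no member was lower in CD36+ NK. The mean log2 level of the 10 NK markers was 2.39 lower in CD36+ NK, so each member was also expressed relative to that mean, a measure chosen after its values were seen. On this scale a gene at equal levels in both fractions is higher by 2.39 in CD36+ NK. The median log2 fold change of all tested genes was 0.01, so being higher here does not set a member apart. The share over all genes was not computed. *Sh2d1a* then differed by 0.03 and *Cd247* by 0.21 on the log2 scale, both with overlapping groups. *Zap70* (0.54) and *Sh2d2a* (0.61) were higher relative to the NK markers without overlap, and *Hcst* (1.47), *Lat2* (1.87), *Tyrobp* (2.01), *Syk* (2.71) and *Sh2d1b1* (2.76) more so. *Lat* was at 1.10, with overlap. No test was made on this scale, and it was not computed without CD36+ NK 1. In the fit without that library, the log2 fold changes of *Cd247* (-2.63) and *Sh2d1a* (-2.60) were larger falls than the 2.39 of the NK marker mean. The sign of their small differences here may therefore rest on CD36+ NK 1.

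The other proximal signalling genes were read from a list of 77, of which 75 were tested. DEGs made up 13.3% of them (all genes, 5.96%), 3 higher and 7 lower in CD36+ NK, and the median log2 fold change was 0.00. Without CD36+ NK 2 or without CD36- NK 1 the DEGs were 1 higher and 5 lower. All genes, with 440 DEGs in each direction in the main fit, gave 120 higher and 298 lower, and 94 higher and 323 lower, in these fits. Among the 9 Src family kinase genes, counted with the phosphatase *Ptprc*, *Lck* (-1.78) and *Fyn* (-1.24), the kinases of T and NK cells, fell, and *Src* (2.18) rose. *Lck* was 189.2, 94.9 and 84.7 CPM in CD36+ NK and 443.0, 364.2 and 463.2 CPM in CD36- NK, with CD36+ NK 1 again the highest of its group, and lost the call without CD36+ NK 2, CD36- NK 1 or CD36- NK 3 (edgeR adjusted p 0.0593 to 0.0643). *Lyn*, which B cells and myeloid cells use, had a log2 fold change of 0.78 (edgeR adjusted p = 0.0266), below the fold threshold.

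Of the 4 Tec kinases, *Txk* fell (log2 fold change -2.22). *Skap1* (-1.90), an adaptor of integrin activation, was the sole DEG of 21 adaptors tested, and lost the call with the replicate block (edgeR adjusted p = 0.0561) and without CD36+ NK 2, CD36+ NK 3, CD36- NK 1 or CD36- NK 3 (0.0608 to 0.0836), while *Blnk* (0.74, edgeR adjusted p = 0.00702), the SLP-65 adaptor of B cells, was under the fold threshold. *Lcp2*, the SLP-76 adaptor that joins LAT to its effectors, had a log2 fold change of 0.26 (edgeR adjusted p = 0.227). Among 24 effectors, *Prkcq* (-2.04), protein kinase C theta, fell and *Vav2* (1.35) rose. *Vav2* was not a DEG without CD36+ NK 2, CD36+ NK 3, CD36- NK 1 or CD36- NK 3 (edgeR adjusted p 0.102 to 0.127). The phospholipases *Plcg1* (0.66) and *Plcg2* (0.16) and the exchange factor *Vav1* (0.05) did not pass the test. Of 17 negative regulators, *Dok2* (-2.00) and *Sla2* (-1.88) fell.

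Receptors that use the adaptors moved in both directions. Of 27 listed, 26 were tested, and 13 were DEGs, of which 7 had the higher level in CD36+ NK and 6 the lower (over all genes, 2.98% in each direction). The higher ones were 2 without CD36+ NK 2 or without CD36+ NK 3, with 6 lower in both fits, and the replicate block gave 4 higher and 7 lower. Higher calls also dropped over all genes, from 440 in each direction. All genes gave 120 higher and 298 lower without CD36+ NK 2, 132 and 319 without CD36+ NK 3, and 221 and 339 with the block. Of the partners of *Tyrobp*, the activating Ly49 receptors *Klra8* (log2 fold change -2.72) and *Klra4* (-2.62) fell with *Klrk1* (NKG2D) and *Klrc2* (NKG2C), while *Trem1* (2.07) and *Pilrb1* (2.08), receptors of myeloid cells, rose with *Trem3* and *Sirpb1a*. *Klrk1* is also the partner of *Hcst*, and was 91.1, 117.3 and 93.4 CPM in CD36+ NK and 372.3, 452.4 and 569.1 CPM in CD36- NK. Of the partners of *Fcer1g*, *Klrb1c* (NK1.1, -2.46) and *Ncr1* (NKp46, -2.43) fell, and *Fcgr4* (3.35), *Clec4e* (1.77) and *Clec4n* rose. With 1 library left out, the log2 fold change of *Fcgr4* ran from 3.03 (without CD36- NK 3) to 3.95 (without CD36- NK 2). *Clec4n* (2.57, edgeR adjusted p = 0.049) and *Sirpb1a* (1.42, edgeR adjusted p = 0.0435) passed narrowly. *Pilrb1* lost its call with the replicate block (edgeR adjusted p = 0.0615) and without CD36+ NK 2, CD36+ NK 3 or CD36- NK 1 (0.0754 to 0.0920), and *Clec4e* without CD36+ NK 2 or CD36+ NK 3 (0.0797 and 0.0602). The lower receptors are those of NK cells and the higher ones are known from myeloid cells, whereas *Tyrobp* and *Fcer1g* themselves did not pass the test. NK1.1 is also a marker of the study's NK cell gate. Members of the *Klra* family are near copies of each other, so their counts are uncertain where fragments could be shared.

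**Figure D5:**
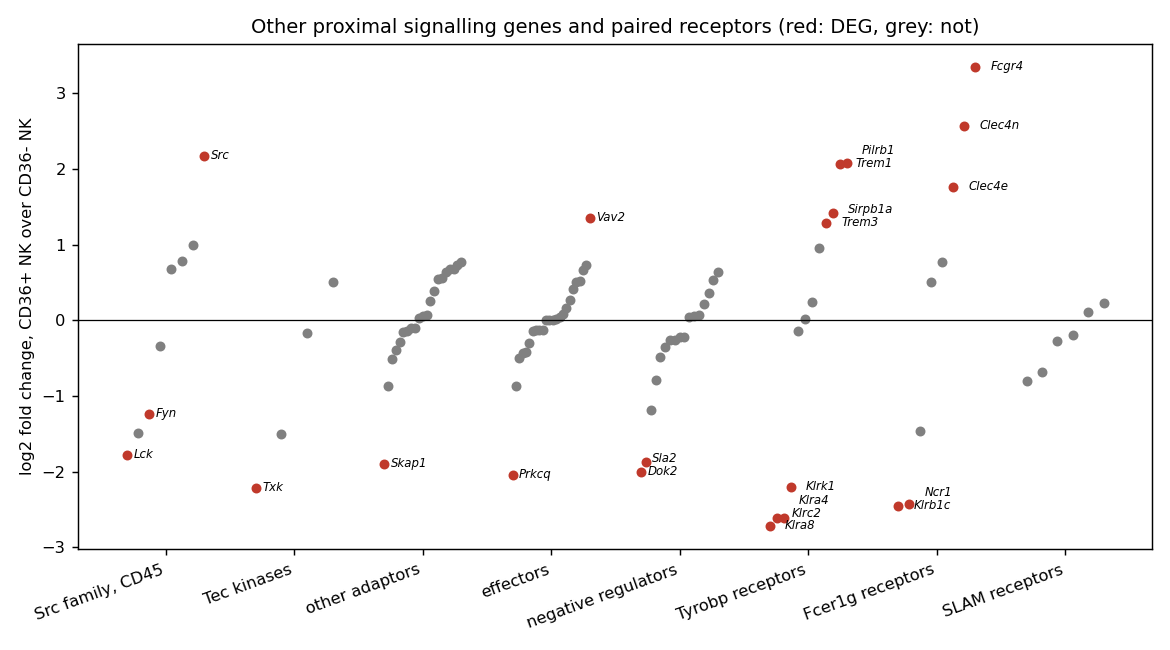
Log2 fold change of CD36+ NK over CD36- NK (y axis) for tested genes of 5 proximal signalling lists and 3 receptor lists, DEGs in red with their symbols and others in grey. The DEGs among *Tyrobp* and *Fcer1g* partners lie either below -2 or above 1, and the effectors, adaptors and negative regulators mostly lie near 0.

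For each member, the 3 tested genes with the closest profile were found by the root mean square (RMS) difference of centred log2 CPM over the 6 libraries, as a description. *Zap70* was closest to *Lck* (0.098), *Tox* and *Cd96*, genes of T and NK cells. *Cd247* was closest to *Pde2a* (0.12), *Gm2682* and *Prkcq* (0.14), and its nearest fellow member was *Zap70* (0.22), at rank 16. Over the members, the nearest fellow member ranked from 16 for *Cd247* to 8438 for *Syk*. *Lat* was closest to *Lef1* (0.15), a transcription factor of T cells, *Ptpn13* and *Tnfrsf25*, and those profiles share the high CD36+ NK 1 library. *Sh2d1a* was closest to *Gm41790*, *Gm43647* and *Cst7* (0.12), and *Sh2d2a* to *Farp1* (0.077), *Soat2* and *Hs3st3b1*. *Syk* was closest to *Hsp90b1* (0.019), *Ube2o* and *Tm7sf3*, and *Tyrobp* to *9130023H24Rik* (0.056), *Immp1l* and *Akt2-ps*. *Lat2* was closest to *Itgb1* (0.041), *Xpo7* and *Rab19*, *Hcst* to *B4galt7* (0.054), *Septin11* and *Rbl2*, and *Sh2d1b1* to *Tbc1d32* (0.10), *Tor1aip2* and *Rhoq*. All these profiles share the same 6 libraries and their group difference.

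Promoter sequences were matched for 6 of the 10 members, namely *Hcst*, *Cd247*, *Zap70*, *Syk*, *Lat* and *Sh2d1b1*. Those of *Cd247* and *Zap70*, which fell together, are shown with that of *Syk*, which did not pass the test. The windows are the 250 bases before a RefSeq start on GRCm38.p6, plus strand, the first listed where a gene has several. Capitals mark GGAAG or its reverse complement CTTCC, the core letters of ETS factor sites.
Cd247, chr1:165788431-165788680: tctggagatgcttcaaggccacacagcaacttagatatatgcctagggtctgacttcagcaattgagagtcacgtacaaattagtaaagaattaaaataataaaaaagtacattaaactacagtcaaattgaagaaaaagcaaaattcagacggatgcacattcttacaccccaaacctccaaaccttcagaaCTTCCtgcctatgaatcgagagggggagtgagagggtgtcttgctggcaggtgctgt
Zap70, chr1:36761548-36761797: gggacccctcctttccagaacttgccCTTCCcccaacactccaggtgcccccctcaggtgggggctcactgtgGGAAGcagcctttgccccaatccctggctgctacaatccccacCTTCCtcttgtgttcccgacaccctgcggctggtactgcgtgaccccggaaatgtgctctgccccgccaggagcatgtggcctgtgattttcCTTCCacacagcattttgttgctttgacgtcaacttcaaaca
Syk, chr13:52583187-52583436: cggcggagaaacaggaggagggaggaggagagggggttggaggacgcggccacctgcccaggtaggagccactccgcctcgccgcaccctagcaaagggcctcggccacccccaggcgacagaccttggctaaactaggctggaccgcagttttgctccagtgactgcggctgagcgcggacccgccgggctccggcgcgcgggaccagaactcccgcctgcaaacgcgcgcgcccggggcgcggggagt
The *Cd247* window held 1 match, the *Zap70* window 4 and the *Syk* window 0. The count depends on the start taken, since the other two *Zap70* windows in the table held 4 and 0 matches. Matches were not confined to genes that fell. Among windows not shown, *Sh2d1b1* held 2 and the non-member *Fcer1g* 3, beside 3 for *Hcst* and 2 for *Lat*. On both strands, 64.1% of 32851 such windows hold GGAAG, so a match is common. TGTGGT, the letters of a RUNX site, is in 14.0% of windows and in none of the 3 shown (the second *Zap70* window holds 1, as does that of *Sh2d1b1*). GGTGTGA, a T-box site, is in 3.33% and also in none of the 3 shown. These letters are a description of the windows, not of binding.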

How the data were processed

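Liver NK cells were sorted into CD36+ NK and CD36- NK fractions, and mRNA libraries were sequenced on an Illumina instrument, 3 per group. Per the methods and labels, the authors filtered reads with Seqtk, mapped them with HISAT2 2.0.4 and counted fragments per gene with StringTie. The deposited counts are whole numbers per gene, not normalized. FPKM from the authors stand beside these counts and were used for the gene length behind them (the same in every library to within 0.0004%) and as an alternative for ratios. The labels name a rat genome build, although the gene identifiers are mouse Ensembl identifiers. The build of the table's coordinates is not given in the sources used here and it is not GRCm38, so gene positions are the table's own and sequences carry GRCm38 coordinates.

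Groups follow the sample titles. The library names use the CD36 sign differently from the titles. Columns were matched to samples by library name. Nothing in the labels ties libraries to separate animals beyond calling them replicates, so p-values measure the spread between these samples, which may be technical.

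Of 57180 genes, 2 had a broken line and were rejoined. In R 4.3.3, edgeR 4.0.16 was fitted to all 6 libraries: filterByExpr with a minimum count of 10 (14761 genes kept), TMM, glmQLFit, glmQLFTest and Benjamini-Hochberg adjustment over all tested genes. DEG means adjusted p below 0.05 and fold above 2, the study's thresholds. The biological coefficient of variation was 20.3%. On simulated counts for this comparison (14761 genes, 200 changed 4-fold), 83% of changed genes were called, with 7 false calls. Log2 fold changes are CD36+ NK over CD36- NK. Ratios used counts per length with 2 counts added and a 2-sided exact permutation test. Alternatives were DESeq2 1.42.0, RLE and upper-quartile scaling, other filters, no fold threshold, a replicate block, and each library left out. Precision is limited by 3 libraries a group.

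The members, gene lists and alternatives were chosen with earlier results of these data known. Named genes are all members, *Fcer1g*, *Lck*, *Fyn*, *Plcg1*, *Plcg2*, *Vav1* and *Lcp2*, up to 3 DEGs of lowest p per direction of each proximal list and 2 of each receptor list, 3 nearest profiles per member, and the most expressed gene of each marker list. The values of 1 gene that the rule names are not reported or plotted here. Others (*Lyn*, *Blnk*, *Klrk1*, *Klrc2*, *Trem3*, *Sirpb1a*, *Clec4n*, *Cd244a*, *Slamf7*, *Clec4f*, *Cd5l*, *Xcr1*, *Clec9a* and the T cell genes) were named after their values were seen. The most expressed markers were *Gzma* (NK), *Trbc1* (T cell), *Ighm* (B cell), *Lyz2* (macrophage), *Chil3* (monocyte), *Itgax* (dendritic cell), *S100a9* (neutrophil), *Mcpt8* (basophil), *Itga2b* (platelet) and *Hbb-bs* (erythroid). Beyond the lists given in the results, DEGs were 1 higher and 1 lower of 6 monocyte, 2 higher and 1 lower of 6 dendritic cell, 0 of 7 neutrophil, 2 higher and 1 lower of 10 T cell, 0 of 8 B cell, 3 higher of 9 macrophage, 1 lower of 5 basophil, 2 higher of 4 platelet and 5 higher of 6 erythroid markers tested.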

Additional observations from a re-analysis of the deposited data

How the results depend on the processing

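Over all genes, 880 DEGs became 1552 without the fold threshold, 560 with the replicate number as a block (339 lower, 221 higher) and 417 to 1160 when each library was left out in turn, the fewest without CD36- NK 1. The 4 members called remained 4 with DESeq2, RLE or upper-quartile scaling, both other filters and the block. They were 6 without the fold threshold and 2 to 5 with 1 library left out: 2 without CD36+ NK 2, CD36- NK 1 or CD36- NK 3, 3 without CD36+ NK 3 and 5 without CD36+ NK 1. The proximal genes called, 10, became 23 without the fold threshold, 6 to 13 with 1 library left out (6 without CD36+ NK 2 or CD36- NK 1) and 8 with the block. The 13 paired receptors called were 8 to 13 with 1 library left out (8 without CD36+ NK 2 or CD36+ NK 3) and 11 with the block. The direction of each member held in every alternative. Among other named genes it turned for *Fcer1g* without CD36+ NK 3 (-0.022) and without CD36- NK 3 (-0.033), and for *Vav1* without CD36+ NK 3 (-0.0015), none past the threshold. Their ranges with 1 library left out were -0.033 to 0.17 and -0.0015 to 0.096. All 4 ratios kept their direction under another pseudocount and from the deposited FPKM. With 1 library left out, the *Lat* to *Lat2* difference ran from -1.82 to -0.21, *Cd247* to *Fcer1g* from -2.78 to -1.93 and *Hcst* to *Tyrobp* from -0.67 to -0.38. The causes were not tested.

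Not all libraries with the same title number deviated together: the correlations of the pairs were 0.31, 0.05 and -0.08, and 1 of 3 CD36+ NK libraries correlated best with its own number. The library names of the CD36- NK libraries carry other numbers than their titles, and these were not used for pairing. With the replicate block *Lat* had a log2 fold change of -1.27 (edgeR adjusted p = 0.297), and the block changed no call of a member. For the ratios the block gave differences of -2.17 for *Zap70* to *Syk*, -0.77 for *Lat* to *Lat2*, -2.25 for *Cd247* to *Fcer1g* and -0.55 for *Hcst* to *Tyrobp*, with exact permutation p values of 0.25 and 0.5.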
